A study of Mus musculus with 18 samples.

Results

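The proteasome genes described here are the 47 rows, of 24341 in a gene-level table of mouse heart transcripts, whose symbol begins with Psma, Psmb, Psmc, Psmd, Psme, Psmf or Psmg followed by a number, without the immunoproteasome subunits Psmb8, Psmb9 and Psmb10. Values are FPKM, a transcript level scaled for transcript length and library size, so levels of different genes are compared per length. The rule used names only and no measured value. Of the 47 genes, 46 reached 1 FPKM in at least 3 libraries and were tested, among 12587 genes in all. Psmb11, the thymus-restricted catalytic subunit, was not tested and stood at or near the floor of 0.01 FPKM, with 0.0226 FPKM as its highest value. Psmc3ip fits the name pattern but encodes a factor of meiotic recombination, and Psme2b is a near copy of Psme2 whose reads the counting could have split with Psme2, so both are left out of the role classes.

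The proteasome is the main protease of the cytosol and nucleus for proteins marked with ubiquitin. Its 20S core particle is a barrel of alpha and beta rings, the outer alpha rings gating the channel and the inner beta rings holding the catalytic sites. The 19S regulatory particle, built of ATPases that unfold the substrate and of non-ATPase subunits that bind and trim ubiquitin, docks on the alpha rings, as can other activators. In heart muscle this machinery removes damaged and surplus sarcomere proteins, and thyroid hormone is known to raise protein turnover in muscle.

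The hearts came from C57BL/6 mice aged 12 weeks of 2 genotypes, a cardiac-specific knockout of Med13 (labelled cKO) and wild type (WT). Med13 belongs to the kinase module of Mediator, a coactivator of RNA polymerase II. Each genotype was kept on a diet with propylthiouracil (PTU), which blocks thyroid hormone synthesis, for 4 weeks and then given 3 daily injections of T3, the active thyroid hormone (the PTU+T3 groups). The other mice had the PTU diet alone for those 4 weeks or normal chow, and the diets began at 8 weeks of age. None of the 6 groups is labelled as injected with vehicle, so T3 and the injections themselves cannot be told apart. Each of the 6 groups had 3 libraries, 18 in all, made from polyA RNA of whole frozen hearts. The labels name neither the Cre driver of the knockout nor its promoter, and do not say whether libraries come from different animals, so the p-values describe the spread among these libraries, which may in part be technical.

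Med13 itself stood at 5.83 ± 0.713 FPKM in cKO hearts and 5.87 ± 0.596 FPKM in WT hearts (SD, n = 9 each), with libraries from 4.93 to 6.82 FPKM in cKO and from 5.24 to 6.96 FPKM in WT. Gene-level values thus overlapped between genotypes, and each direction between cKO and WT rests on the labels alone. All 10 cardiomyocyte markers were tested, and their summed level was 41571 to 83913 FPKM over the 18 libraries. The number of genes at 1 FPKM or more was 11679 to 12093 per library. FPKM tables carry no read totals, so absolute depth is unknown, and the steps between low values put the deepest library 1.54 times above the shallowest.

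Proteasome transcripts were abundant in every group. Over the 18 libraries, mean levels in the alpha ring lay between 74.1 FPKM for Psma5 and 198 FPKM for Psma7, a ratio of 2.67. In the beta ring they lay between 103 FPKM for Psmb5 and 239.5 FPKM for Psmb7. The ATPases spanned 67.7 FPKM for Psmc4 to 171 FPKM for Psmc3, and the non-ATPases 44.7 FPKM for Psmd11 to 99.8 FPKM for Psmd4. Subunits of the finished particle thus stood within a few fold of each other, whereas the assembly chaperones selected by the rule were lower. Pomp, a maturation factor of the 20S core outside the rule, was not low and stood within the range of the subunits, as given below. The 19S chaperones had means of 8.63 FPKM (Psmd9) to 13.1 FPKM (Psmd5), and the 20S chaperones 11.8 FPKM (Psmg3) to 31.2 FPKM (Psmg2). Among the activators the range was 33.6 FPKM for Psme3 to 156 FPKM for Psme1. Psma8, the testis variant of the alpha ring, never passed 1.30 FPKM.

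Short stretches of 4 promoters are shown because their genes carry the T3 results that follow, Psmd14 and Psmb3 with the largest WT changes of their classes, Psmb5 as a catalytic subunit and Psmd4 as a subunit that went the other way. They are RefSeq sequences on GRCm38.p6, 5′ to 3′ on the gene's strand, from 250 bases before the start and cut where an annotated exon begins. Capitals mark TGACNNNGC, the core of the antioxidant response element bound by the NFE2L1 and NFE2L2 family, or CCGGAAG, the core bound by ETS factors.
Psmd14, chr2:61711444-61711693, plus strand: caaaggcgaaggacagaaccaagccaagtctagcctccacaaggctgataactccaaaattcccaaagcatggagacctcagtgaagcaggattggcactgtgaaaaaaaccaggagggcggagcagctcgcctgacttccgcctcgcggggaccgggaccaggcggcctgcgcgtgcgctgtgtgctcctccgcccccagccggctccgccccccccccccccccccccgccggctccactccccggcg
Psmb3, chr11:97703184-97703398, plus strand: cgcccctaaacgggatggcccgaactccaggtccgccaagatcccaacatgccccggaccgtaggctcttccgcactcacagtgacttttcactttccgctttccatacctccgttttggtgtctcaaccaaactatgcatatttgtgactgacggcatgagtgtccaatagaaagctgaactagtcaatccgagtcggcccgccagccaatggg
Psmb5, chr14:54618023-54618245, minus strand: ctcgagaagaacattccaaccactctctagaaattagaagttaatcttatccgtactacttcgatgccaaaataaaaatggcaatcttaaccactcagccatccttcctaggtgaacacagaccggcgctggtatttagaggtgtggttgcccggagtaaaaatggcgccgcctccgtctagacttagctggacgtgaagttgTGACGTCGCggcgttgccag
Psmd4, chr3:95042615-95042864, minus strand: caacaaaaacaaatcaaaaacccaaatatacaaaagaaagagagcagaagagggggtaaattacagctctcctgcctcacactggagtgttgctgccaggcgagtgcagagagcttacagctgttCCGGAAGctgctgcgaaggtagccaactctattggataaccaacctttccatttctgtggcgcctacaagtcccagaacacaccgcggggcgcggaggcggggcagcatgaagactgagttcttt

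Promoter windows from 250 bases before to 50 after the start were found for 39 of the 47 genes and searched on both strands. TGACNNNGC was present in 6 of them (15.4%; 14% of 27025 genes with a window), those of Psmb5, Psmb6, Psmc6, Psmd9, Psmd12 and Psme4. CCGGAAG was present in 15 (38.5%; 9.93% of all genes), CCAAT, the CCAAT box, in 14 (35.9%; 41.1%), and AGGTCA, the half-site of nuclear receptors, in 9 (23.1%; 18.1%). The motifs were chosen with results of these data known, and a match describes letters in a window and not a bound site. CCGGAAG stood both in Psmd4, with lower values with T3 in WT, and in Psmd11, Psmd12, Psme3 and Psme4, which rose.

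The first comparison, PTU+T3 against PTU alone, asks what hormone replacement did in hearts deprived of thyroid hormone. The proteasome genes rose broadly: 31 of 46 were called higher and 2 lower in cKO hearts, and 24 higher and 2 lower in WT hearts, by limma at a Benjamini-Hochberg adjusted p under 0.05. Of all tested genes, 24.9% were called higher and 21.8% lower in cKO hearts, and 22.3% higher and 21.8% lower in WT hearts. The median log2 fold change of the 46 genes was 0.39 in cKO and 0.27 in WT hearts, where the median of all tested genes was 0.00 in both. Summed over the 14 genes of the 20S core, the level was 2596, 2731 and 2450 FPKM with PTU+T3 against 1706, 1728 and 1939 FPKM on PTU in cKO hearts, and 2346, 2369 and 2676 FPKM with PTU+T3 against 1783, 1703 and 2014 FPKM on PTU in WT hearts. The T3 and PTU libraries did not overlap in either genotype. The 17 genes of the 19S particle summed to 1556 to 1693 FPKM with PTU+T3 against 1212 to 1309 FPKM on PTU in cKO, and 1522 to 1636 FPKM against 1234 to 1394 FPKM in WT, again without overlap.

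**Figure D1:**
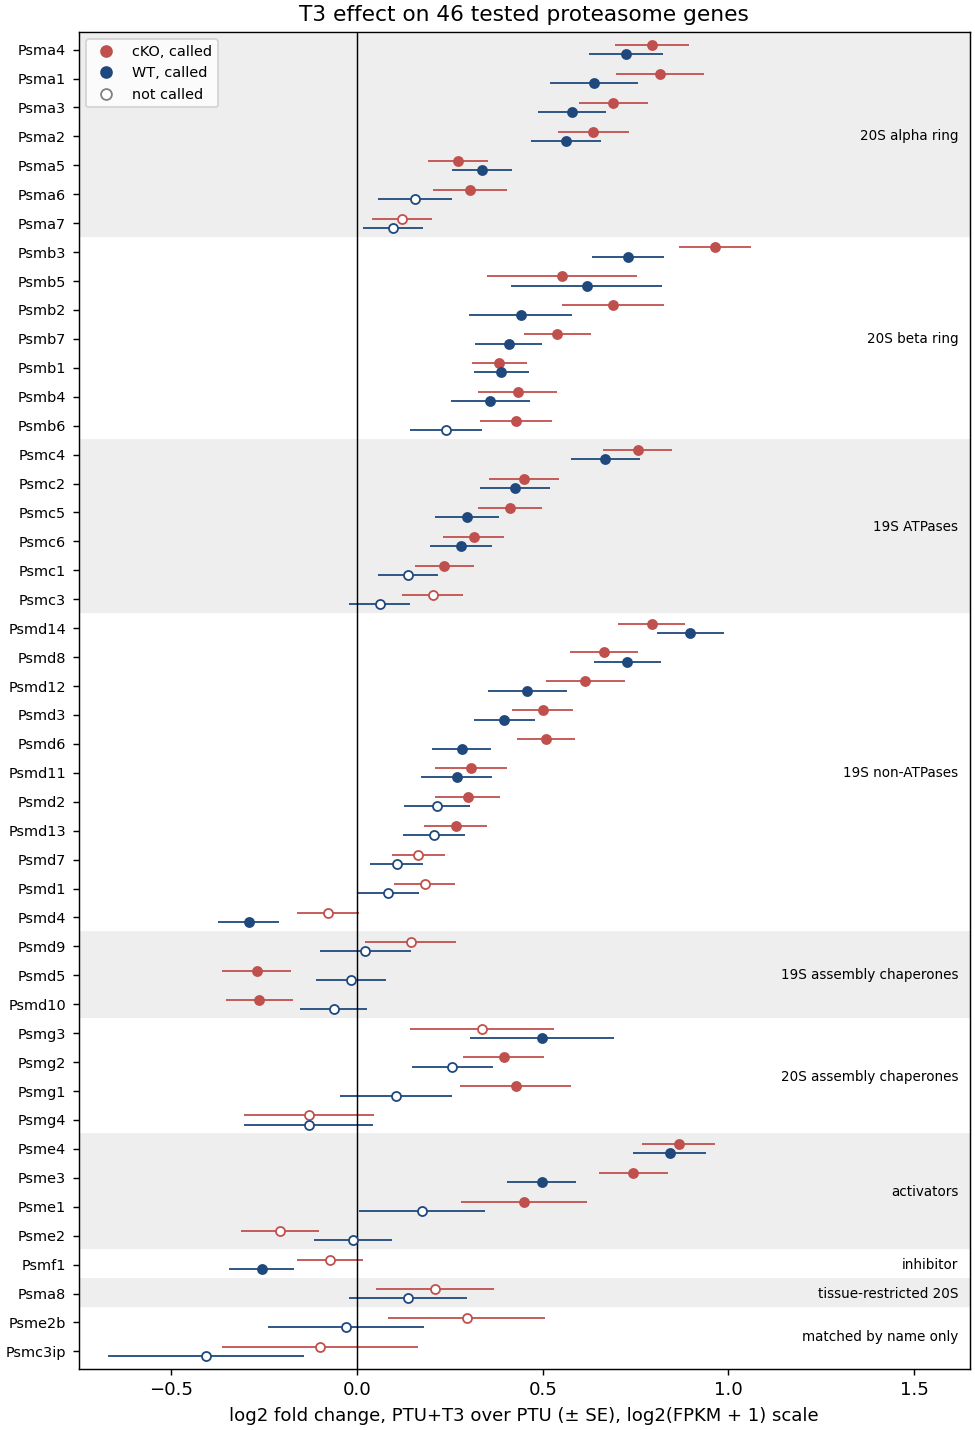
Log2 fold change for PTU+T3 over PTU of each of the 46 tested proteasome genes (x axis, on the log2(FPKM + 1) scale, error bars SE from the limma fit) in cKO (red, upper point) and WT hearts (blue, lower point), in blocks by role. Filled points were called; most points of the rings, the ATPases and the non-ATPases lie right of 0, and Psmd4 and Psmf1 were called to the left in WT and Psmd5 and Psmd10 in cKO.

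Alpha-ring genes rose in both genotypes, with 6 of 7 called higher in cKO hearts and 5 of 7 in WT hearts, and medians of 0.64 and 0.56. Psma4, whose product belongs to the ring that gates the channel, measured 157, 171 and 139 FPKM with PTU+T3, 81.3, 89.2 and 97.00 FPKM on PTU, and 127, 135 and 111 FPKM on chow in cKO hearts. In WT hearts it measured 144, 144 and 159 FPKM with PTU+T3, 81.98, 90.7 and 96.5 FPKM on PTU, and 114, 119 and 119 FPKM on chow. The T3 libraries were the highest and the PTU libraries the lowest in both genotypes, with no overlap between treatments. Psma4 rose by 0.79 on the log2 scale in cKO (SE 0.0999, adjusted p = 1.03e-05) and by 0.72 in WT (SE 0.0999, adjusted p = 3.25e-05), and AY074887 overlaps it on the opposite strand. Psma1, another alpha subunit, had 161, 163 and 145 FPKM with PTU+T3, 87.4, 81.4 and 96.3 FPKM on PTU, and 129.7, 126 and 98.1 FPKM on chow in cKO hearts. Its WT values were 135, 139 and 161 FPKM with PTU+T3, 89.3, 84.1 and 106 FPKM on PTU, and 115, 124 and 107 FPKM on chow. They were ordered in the same way without overlap, and the log2 fold change was 0.82 in cKO (adjusted p = 4.15e-05) and 0.64 in WT (adjusted p = 4.34e-04). Psma2 and Psma3 rose in both genotypes by 0.56 to 0.69, and Psma5 by 0.27 in cKO and 0.34 in WT, where the cKO call ended without cKO PTU library 1 (adjusted p = 0.0669).

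At the other end of the alpha ring stood Psma7, the most abundant of its genes. It had 208, 219 and 200.2 FPKM with PTU+T3, 184, 186 and 207 FPKM on PTU, and 183, 192 and 199.7 FPKM on chow in cKO hearts. In WT hearts it had 204, 204 and 213 FPKM with PTU+T3, 187, 182 and 214 FPKM on PTU, and 199, 188 and 196 FPKM on chow. The treatments overlapped in both genotypes, and the log2 fold changes of 0.12 in cKO and 0.10 in WT were not called (adjusted p = 0.235 and 0.351). Psma6 was called in cKO (0.30, adjusted p = 0.0199), a call that ended without cKO PTU library 2 (adjusted p = 0.068) or cKO PTU+T3 library 2 (adjusted p = 0.0747), and had a log2 fold change of 0.16 in WT (adjusted p = 0.221).

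Beta-ring genes were called higher in 7 of 7 cases in cKO hearts and 6 of 7 in WT hearts, with medians of 0.54 and 0.41. The calls of Psmb2, Psmb3, Psmb6 and Psmb7 in cKO and of Psmb1, Psmb3 and Psmb7 in WT held under every alternative. Those of Psmb2 (adjusted p up to 0.0841), Psmb4 (up to 0.0639) and Psmb5 in WT did not. Psmb3, a non-catalytic beta subunit, had the largest change of the ring. It measured 279.6, 296 and 248 FPKM with PTU+T3, 134, 129 and 157 FPKM on PTU, and 172, 184 and 169.5 FPKM on chow in cKO hearts. It measured 233, 247 and 274 FPKM with PTU+T3, 150.3, 141 and 161 FPKM on PTU, and 175, 183 and 169 FPKM on chow in WT hearts. Every T3 library stood above every other library of its genotype, and the log2 fold change was 0.96 in cKO (SE 0.0969, adjusted p = 1.22e-06) and 0.73 in WT (SE 0.0969, adjusted p = 2.23e-05). The 3 catalytic genes follow. Psmb7, which carries the trypsin-like site, had 311, 289.9 and 276 FPKM with PTU+T3, 199, 193 and 209.6 FPKM on PTU, and 239, 248 and 225 FPKM on chow in cKO hearts. Its values in WT hearts were 263, 266 and 283 FPKM with PTU+T3, 197, 185 and 232 FPKM on PTU, and 243, 235 and 217 FPKM on chow. T3 libraries were above PTU libraries in both genotypes, by 0.54 in cKO (adjusted p = 1.61e-04) and 0.41 in WT (adjusted p = 0.00179).

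Psmb6, which carries the caspase-like site, had 208, 221 and 195 FPKM with PTU+T3, 148, 146 and 169 FPKM on PTU, and 170.4, 179 and 154 FPKM on chow in cKO hearts. In WT hearts the values were 180.5, 178 and 221 FPKM with PTU+T3, 159, 157 and 172 FPKM on PTU, and 157, 163 and 154 FPKM on chow. T3 libraries lay above PTU libraries in both genotypes, by a called 0.43 in cKO (adjusted p = 0.00183) and an uncalled 0.24 in WT (adjusted p = 0.0545). Psmb5, which carries the chymotrypsin-like site and has TGACGTCGC in capitals in the promoter above, had 114, 125 and 108 FPKM with PTU+T3, 63.5, 74.04 and 102 FPKM on PTU, and 95.4, 133 and 88.1 FPKM on chow in cKO hearts. In WT hearts it had 115, 113 and 129 FPKM with PTU+T3, 68.8, 63.5 and 105 FPKM on PTU, and 98.9, 137 and 129.7 FPKM on chow. The T3 and PTU libraries did not overlap, but PTU library 3 of each genotype, at 102 FPKM in cKO and 105 FPKM in WT, came close to the T3 values. Its log2 fold change was 0.55 in cKO (SE 0.202, adjusted p = 0.0347) and 0.62 in WT (SE 0.202, adjusted p = 0.0213), with the largest SE of the 14 core genes. The call ended without cKO PTU library 1 (adjusted p = 0.154), cKO PTU library 2 (adjusted p = 0.0881), cKO PTU+T3 library 1 (adjusted p = 0.0681), cKO PTU+T3 library 2 (adjusted p = 0.103) or cKO PTU+T3 library 3 (adjusted p = 0.0515) in cKO, and without WT PTU library 1 (adjusted p = 0.0782), WT PTU library 2 (adjusted p = 0.0972) or WT PTU+T3 library 3 (adjusted p = 0.071) in WT. Summed, the 3 catalytic genes stood at 632, 635 and 580.1 FPKM with PTU+T3 against 411, 413 and 481 FPKM on PTU in cKO, and at 558, 557 and 633 FPKM with PTU+T3 against 424, 406 and 508 FPKM on PTU in WT.

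**Figure D2:**
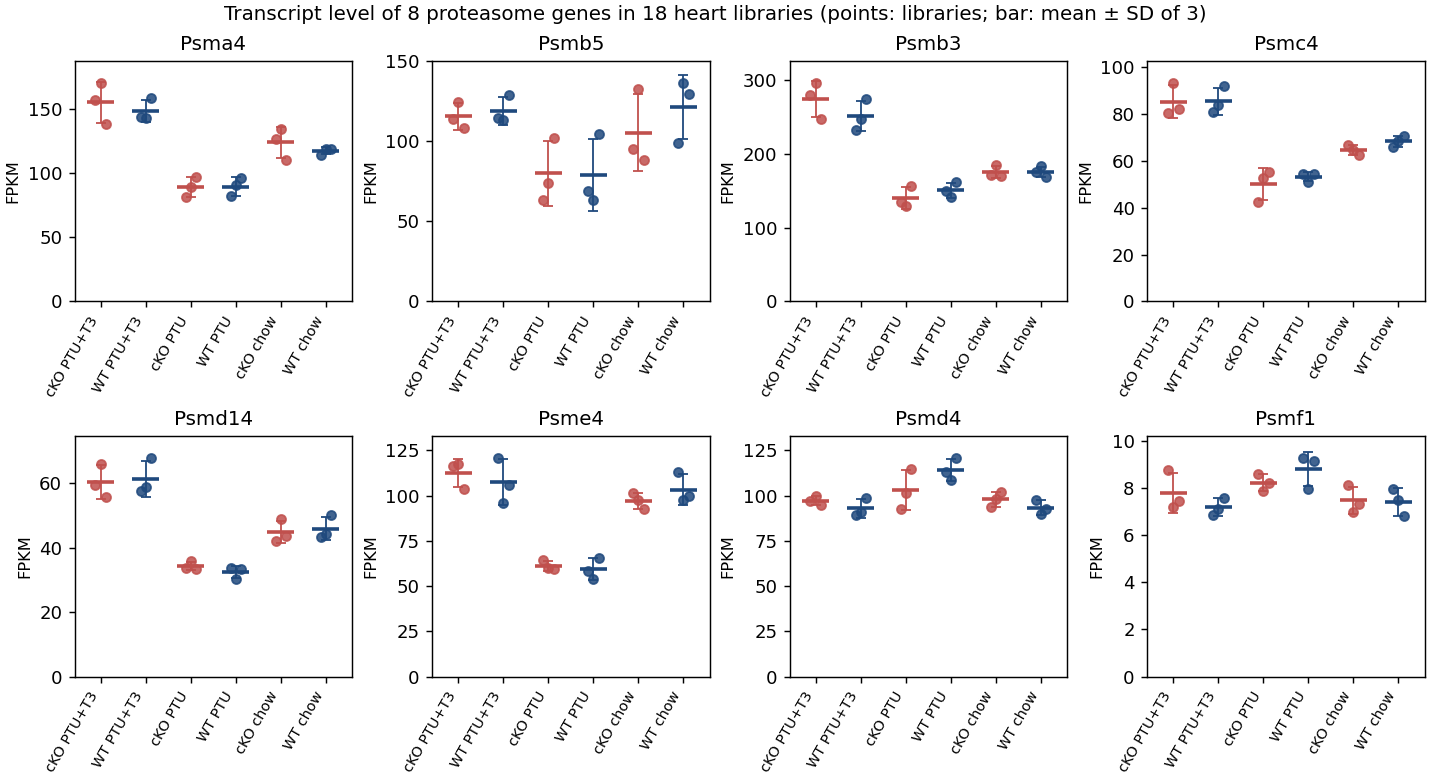
FPKM (y axis, from 0) of 8 proteasome genes by group, with a point per library and bars for the mean ± SD of 3. Psma4, Psmb3, Psmc4, Psmd14 and Psme4 are highest in the PTU+T3 groups or level with chow and lowest in the PTU groups of both genotypes, and Psmd4 and Psmf1 are not.

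In the ATPase ring, 5 of 6 genes were called higher in cKO hearts and 4 of 6 in WT hearts. Psmc4 changed most, with 80.2, 93.1 and 81.9 FPKM with PTU+T3, 42.5, 52.8 and 55.2 FPKM on PTU, and 66.6, 64.4 and 62.4 FPKM on chow in cKO hearts. Its WT values were 80.7, 83.5 and 91.7 FPKM with PTU+T3, 54.4, 50.9 and 54.4 FPKM on PTU, and 65.98, 68.2 and 70.6 FPKM on chow. The 3 treatments did not overlap within a genotype, and it rose with T3 by 0.76 in cKO (SE 0.0932, adjusted p = 8.40e-06) and 0.67 in WT (SE 0.0932, adjusted p = 3.53e-05). Psmc2, Psmc5 and Psmc6 were called higher in both genotypes by 0.28 to 0.45. The Psmc6 call in WT ended without WT PTU library 2 (adjusted p = 0.0631) and with only the groups compared. The WT calls of Psmc5 and Psmc6 ended without the library highest in atrial markers of each group and scaled to the same total FPKM (adjusted p up to 0.0597 for Psmc5 and 0.0815 for Psmc6). Their cKO calls also ended under at least 1 alternative. Psmc3, the most abundant ATPase gene, had 180.3, 193 and 181 FPKM with PTU+T3, 156, 149 and 177 FPKM on PTU, and 169, 176 and 175 FPKM on chow in cKO hearts. It had 172, 166 and 184 FPKM with PTU+T3, 161, 161 and 179 FPKM on PTU, and 180.2, 162 and 163 FPKM on chow in WT hearts. The T3 and PTU libraries overlapped in WT and not in cKO, and neither log2 fold change was called (0.20 in cKO, adjusted p = 0.0543, and 0.06 in WT, adjusted p = 0.58). Psmc1 was called in cKO (0.24, adjusted p = 0.0247), a call that ended without cKO PTU library 1 (adjusted p = 0.0571), cKO PTU library 2 (adjusted p = 0.0539), cKO PTU+T3 library 2 (adjusted p = 0.0866) or cKO PTU+T3 library 3 (adjusted p = 0.0565), and its value was -0.03 when libraries were scaled to the same total FPKM.

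The non-ATPase subunits were uneven: 8 of 11 were called higher in cKO hearts, and 6 of 11 higher and 1 lower in WT hearts. Psmd14, the deubiquitinase that cuts ubiquitin chains from the substrate at the pore, is on chromosome 2 from 61711694 to 61800376 (GRCm38). It measured 59.5, 65.97 and 55.6 FPKM with PTU+T3, 33.6, 35.9 and 33.5 FPKM on PTU, and 42.1, 48.8 and 43.6 FPKM on chow in cKO hearts. It measured 57.5, 58.7 and 67.8 FPKM with PTU+T3, 33.7, 30.2 and 33.3 FPKM on PTU, and 43.4, 44.3 and 49.99 FPKM on chow in WT hearts. All T3 libraries lay above all chow libraries and these above all PTU libraries in both genotypes. Its log2 fold change of 0.79 in cKO (SE 0.0902, adjusted p = 3.91e-06) and 0.90 in WT (SE 0.0902, adjusted p = 1.43e-06) was the largest of the 46 genes in WT. Psmd8 followed with 0.67 and 0.73, Psmd12 with 0.62 and 0.46, Psmd3 with 0.50 and 0.40, and Psmd6 with 0.51 and 0.28, each called in cKO and in WT. The WT call of Psmd6 ended when libraries were scaled to the same total FPKM and with only the groups compared (adjusted p up to 0.0696).

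Psmd11, a scaffold subunit of the lid, had smaller changes. It measured 48.5, 50.6 and 51.4 FPKM with PTU+T3, 39.1, 44.1 and 37.98 FPKM on PTU, and 44.4, 51.2 and 41.99 FPKM on chow in cKO hearts. In WT hearts it measured 45.5, 51.5 and 47.4 FPKM with PTU+T3, 41.3, 34.8 and 43.7 FPKM on PTU, and 46.8, 41.2 and 42.9 FPKM on chow. The T3 libraries were above the PTU libraries in both, by 0.31 in cKO (adjusted p = 0.016) and 0.27 in WT (adjusted p = 0.034). The call ended without cKO PTU library 1 (adjusted p = 0.0521) or cKO PTU library 3 (adjusted p = 0.06) in cKO, and without WT PTU library 2 (adjusted p = 0.171), WT PTU+T3 library 2 (adjusted p = 0.12) or WT PTU+T3 library 3 (adjusted p = 0.0601) in WT. Psmd2, the scaffold that ubiquitin-like shuttle proteins bind, had 100.4, 106 and 106 FPKM with PTU+T3, 82.8, 82.8 and 87.8 FPKM on PTU, and 103, 105 and 107 FPKM on chow in cKO hearts. Its WT values were 106, 104 and 105 FPKM with PTU+T3, 89.4, 80.1 and 103 FPKM on PTU, and 117, 110.3 and 96.9 FPKM on chow. It was called in cKO (0.30, adjusted p = 0.0114) and not in WT (0.22, adjusted p = 0.0578), although T3 and PTU libraries did not overlap in either. Its cKO call ended without the libraries highest in atrial markers and under the scalings by the upper quartile and to the same total FPKM (0.03). Psmd1, the other large scaffold, and Psmd7, the inactive partner of Psmd14, were called in neither genotype, with log2 fold changes of 0.08 to 0.18.

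Psmd4, a ubiquitin receptor and the most abundant non-ATPase gene, ran the other way. It measured 96.96, 99.8 and 94.8 FPKM with PTU+T3, 92.7, 101 and 115 FPKM on PTU, and 93.5, 98.4 and 102 FPKM on chow in cKO hearts. It measured 89.3, 90.95 and 98.9 FPKM with PTU+T3, 113, 109 and 121 FPKM on PTU, and 97.6, 89.6 and 92.9 FPKM on chow in WT hearts. In WT every PTU library was above every T3 and chow library, whereas in cKO the treatments overlapped. Psmd4 fell by 0.29 on the log2 scale with T3 in WT (SE 0.0829, adjusted p = 0.00968) and had a log2 fold change of -0.08 in cKO (SE 0.0829, adjusted p = 0.465). The T3 effect on Psmd4 differed between genotypes by 0.21 (cKO minus WT, SE 0.117, adjusted p = 0.696), which was not called. The WT call of Psmd4 with T3 ended without the library highest in atrial markers of each group (adjusted p = 0.0907) and with only the groups compared (adjusted p = 0.0557).

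The 19S assembly chaperones did not rise. Psmd10, the oncoprotein gankyrin, had 8.78, 8.54 and 7.78 FPKM with PTU+T3, 10.99, 9.70 and 10.04 FPKM on PTU, and 8.47, 9.49 and 9.57 FPKM on chow in cKO hearts. Its WT values were 8.93, 10.54 and 9.98 FPKM with PTU+T3, 9.39, 11.45 and 10.1 FPKM on PTU, and 9.03, 8.11 and 9.58 FPKM on chow. In cKO the T3 libraries were all below the PTU libraries and the gene fell by 0.26 (adjusted p = 0.0245), a call that ended without cKO PTU library 1 (adjusted p = 0.0969) or cKO PTU+T3 library 3 (adjusted p = 0.0955), and in WT the treatments overlapped (-0.06, adjusted p = 0.6). Psmd5 fell by 0.27 in cKO (adjusted p = 0.0256), a call that ended without cKO PTU library 1 (adjusted p = 0.0855), cKO PTU library 2 (adjusted p = 0.083) or cKO PTU+T3 library 1 (adjusted p = 0.121), and had -0.02 in WT (adjusted p = 0.907). Psmd9 had 9.45, 10.8 and 8.54 FPKM with PTU+T3, 9.25, 7.69 and 8.76 FPKM on PTU, and 7.96, 10.2 and 7.21 FPKM on chow in cKO hearts. It had 7.72, 8.06 and 10.02 FPKM with PTU+T3, 8.49, 8.17 and 8.55 FPKM on PTU, and 7.53, 7.73 and 9.26 FPKM on chow in WT hearts. The treatments overlapped in both genotypes, and neither log2 fold change of Psmd9 was called (0.14 in cKO and 0.02 in WT).

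Among the 20S assembly chaperones, 2 of 4 were called higher in cKO hearts and 1 of 4 in WT hearts. Psmg1, which pairs with Psmg2 to seed the alpha ring, had 30.6, 27.1 and 26.7 FPKM with PTU+T3, 17.6, 18.6 and 26.9 FPKM on PTU, and 27.8, 25.9 and 22.9 FPKM on chow in cKO hearts. It had 22.9, 24.3 and 32.9 FPKM with PTU+T3, 25.5, 22.2 and 25.7 FPKM on PTU, and 21.6, 25.1 and 20.4 FPKM on chow in WT hearts. The treatments overlapped in both genotypes, and the log2 fold change was 0.43 in cKO (adjusted p = 0.0282) and 0.11 in WT (adjusted p = 0.6). The Psmg1 call ended without cKO PTU library 1 (adjusted p = 0.132), cKO PTU library 2 (adjusted p = 0.0989) or cKO PTU+T3 library 1 (adjusted p = 0.0982). Psmg3 had 13.1, 15.5 and 13.95 FPKM with PTU+T3, 7.88, 11.3 and 14.7 FPKM on PTU, and 11.8, 11.3 and 11.3 FPKM on chow in cKO hearts. Its WT values were 12.5, 15.6 and 13.8 FPKM with PTU+T3, 10.7, 10.2 and 7.96 FPKM on PTU, and 9.71, 13.5 and 7.31 FPKM on chow. It was called in WT (0.50, adjusted p = 0.0475), where T3 and PTU libraries did not overlap and chow libraries overlapped both, but the call ended when any 1 of the 6 libraries compared was left out, namely without WT PTU library 1 (adjusted p = 0.0536), WT PTU library 2 (adjusted p = 0.0667), WT PTU library 3 (adjusted p = 0.173), WT PTU+T3 library 1 (adjusted p = 0.0512), WT PTU+T3 library 2 (adjusted p = 0.143) or WT PTU+T3 library 3 (adjusted p = 0.0925).

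Psmg4, the partner of Psmg3, had 22.8, 27.4 and 29.6 FPKM with PTU+T3, 24.8, 26.3 and 37.4 FPKM on PTU, and 23.8, 30.3 and 29.2 FPKM on chow in cKO hearts. In WT hearts it had 33.4, 23.3 and 34.1 FPKM with PTU+T3, 40.7, 27.8 and 30.98 FPKM on PTU, and 26.2, 27.2 and 27.7 FPKM on chow. Treatments overlapped in both, and the log2 fold changes of -0.13 and -0.13 were not called. Psmg2 was called in cKO (0.39, adjusted p = 0.00735) and not in WT (0.26, adjusted p = 0.0658).

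The activators split by gene. Psme4, the large nuclear activator PA200, is on chromosome 11 from 30771726 to 30880361 (GRCm38) and had 117, 117 and 104 FPKM with PTU+T3, 64.5, 59.97 and 59.2 FPKM on PTU, and 101, 97.4 and 92.5 FPKM on chow in cKO hearts. It had 121, 95.96 and 106 FPKM with PTU+T3, 58.6, 54.02 and 65.6 FPKM on PTU, and 113, 97.5 and 99.6 FPKM on chow in WT hearts. The PTU libraries stood apart below all others in both genotypes, and Psme4 rose with T3 by 0.87 in cKO (SE 0.0978, adjusted p = 3.65e-06) and 0.84 in WT (SE 0.0978, adjusted p = 6.17e-06). Psme3, the nuclear homoheptameric activator, had 42.7, 45.8 and 39.5 FPKM with PTU+T3, 22.97, 25.9 and 26.3 FPKM on PTU, and 32.3, 34.9 and 32.5 FPKM on chow in cKO hearts. Its WT values were 37.1, 38.3 and 46.2 FPKM with PTU+T3, 29.4, 26.1 and 29.5 FPKM on PTU, and 32.4, 33.4 and 29.4 FPKM on chow. T3 libraries were above PTU libraries in both, by 0.74 in cKO (adjusted p = 9.30e-06) and 0.50 in WT (adjusted p = 4.59e-04).

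Psme1 and Psme2 encode the partners of the interferon-inducible cytosolic activator. Psme1 had 172, 205 and 169 FPKM with PTU+T3, 129, 121 and 149.9 FPKM on PTU, and 166, 169 and 125 FPKM on chow in cKO hearts. It had 190.4, 129 and 201 FPKM with PTU+T3, 149, 135 and 170.5 FPKM on PTU, and 144, 164 and 119.6 FPKM on chow in WT hearts. WT library 2 with PTU+T3, at 129 FPKM, was below all 3 WT libraries on PTU, and the log2 fold change was 0.45 in cKO (adjusted p = 0.0401) and 0.18 in WT (adjusted p = 0.429). The Psme1 call in cKO ended without cKO PTU library 1 (adjusted p = 0.096), cKO PTU library 2 (adjusted p = 0.12), cKO PTU+T3 library 1 (adjusted p = 0.0594), cKO PTU+T3 library 2 (adjusted p = 0.147) or cKO PTU+T3 library 3 (adjusted p = 0.0512). Psme2 had 82.7, 88.96 and 88.2 FPKM with PTU+T3, 94.5, 95.4 and 111 FPKM on PTU, and 87.5, 95.4 and 102 FPKM on chow in cKO hearts. It had 115, 85.6 and 101 FPKM with PTU+T3, 102, 95.1 and 106 FPKM on PTU, and 97.8, 95.03 and 84.9 FPKM on chow in WT hearts. In cKO the T3 libraries were below the PTU libraries and in WT they overlapped, and neither log2 fold change was called (-0.21 in cKO, adjusted p = 0.12, and -0.01 in WT, adjusted p = 0.943).

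Psmf1, the inhibitor that binds the 20S core, was the second gene called lower in WT hearts. It had 8.79, 7.20 and 7.43 FPKM with PTU+T3, 8.62, 7.88 and 8.22 FPKM on PTU, and 8.11, 7.01 and 7.34 FPKM on chow in cKO hearts. It had 6.87, 7.11 and 7.59 FPKM with PTU+T3, 9.28, 7.97 and 9.16 FPKM on PTU, and 7.96, 7.48 and 6.80 FPKM on chow in WT hearts. The WT PTU libraries were above the other WT libraries while the cKO treatments overlapped, and the log2 fold change was -0.07 in cKO (adjusted p = 0.524) and -0.26 in WT (SE 0.0879, adjusted p = 0.0263). The WT call ended without WT PTU library 1 (adjusted p = 0.0947), WT PTU library 3 (adjusted p = 0.0825), WT PTU+T3 library 1 (adjusted p = 0.0798) or WT PTU+T3 library 2 (adjusted p = 0.0625). Psma8, Psmc3ip and Psme2b were called in neither genotype, and they had log2 fold changes of 0.21, -0.10 and 0.30 in cKO and 0.14, -0.41 and -0.03 in WT.

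The T3 calls depended in part on the scale. Total FPKM averaged 711393 with PTU+T3 and 589213 on PTU in cKO, and 664301 and 630223 in WT. When every library was scaled to the same total, a choice made after seeing the data, 17 genes were called higher and 5 lower in cKO (31 and 2 without it), and 20 higher and 2 lower in WT (24 and 2 without it). In cKO that scaling moved the median of all tested genes to -0.23 and that of the proteasome genes to 0.13, and in WT to -0.06 and 0.20. The shares of all tested genes called under this scaling are not given here or below, so its counts lack that background. The genes it called lower in cKO were Psmd4, Psmd5, Psmd10, Psme2 and Psmf1. As a share of all FPKM, the 14 core genes held 0.356% to 0.372% with PTU+T3 against 0.298% to 0.313% on PTU in cKO, and 0.360% to 0.392% against 0.289% to 0.292% in WT. The calls of 17 genes in cKO and 15 in WT held under every alternative tried, and Psma1 to Psma4, Psmb3, Psmb7, Psmc2, Psmc4, Psmd3, Psmd8, Psmd12, Psmd14, Psme3 and Psme4 were among them in both.

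Cell type markers moved in the same comparison, and in bulk tissue fewer cells of a type and less RNA per cell cannot be told apart. Of 14 macrophage markers, 7 rose with T3 in cKO and 10 in WT and none fell, and their summed level was 515 to 605 FPKM with PTU+T3 against 202 to 661 FPKM on PTU in cKO, and 503 to 852 FPKM against 202 to 303 FPKM in WT. In cKO, PTU library 2 held 661 FPKM of macrophage markers against 202 and 248 FPKM in the other two, while its 20S core sum of 1728 FPKM lay between theirs. Of 10 cardiomyocyte markers, 5 rose and 1 fell with T3 in cKO, and 3 rose and 4 fell in WT. Their sum was 65530 to 83913 FPKM with PTU+T3 against 41571 to 58712 FPKM on PTU in cKO, without overlap as in the core genes, and 50151 to 81039 FPKM against 55382 to 72649 FPKM in WT, with overlap. The markers in that sum did not move alike in cKO. Myh6 rose by 4.25 and Actc1 by 1.88 on the log2 scale, Pln fell by 0.49, and Mybpc3 was not called (-0.13). Of 12 endothelial markers, Eng, Flt1 and Tie1 rose and Robo4 fell in cKO, and Eng and Tie1 rose and Robo4 fell in WT. The endothelial sum was 433 to 497.5 FPKM with PTU+T3 against 395 to 430.4 FPKM on PTU in cKO, and 381 to 479.9 FPKM against 411 to 426 FPKM in WT. Of 10 fibroblast markers, Tcf21 fell in cKO, by 0.97 on the log2 scale, and none was called in WT, and their sum overlapped between T3 and PTU in both genotypes (836 to 1119 FPKM against 937 to 1993 FPKM in cKO, and 849.7 to 1953 FPKM against 646 to 1404 FPKM in WT). None of the 8 atrial markers was called, and their sum was 569 to 4602 FPKM with PTU+T3 against 3314 to 10273 FPKM on PTU in cKO, and 3073 to 3490.3 FPKM against 1687 to 6996 FPKM in WT. No lymphocyte marker was called among the 2 of 11 that were tested, and Cd3e, Cd3d, Cd3g, Cd4 and Cd8a stayed under 1 FPKM in all 18 libraries. The part of these markers' cells in the proteasome values was not tested.

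The second comparison, PTU against chow, asks what loss of thyroid hormone did. Changes were smaller and mostly downward: 1 gene was called higher and 13 lower in cKO hearts, and 1 higher and 7 lower in WT hearts. Of all tested genes, 6.44% were called higher and 9.59% lower in cKO, and 8.02% higher and 8.76% lower in WT, so in WT the 7 lower of 46 are not far from that share. The median log2 fold change of the 46 genes was -0.18 in cKO and -0.08 in WT, and of all tested genes 0.00 in both. This comparison shares its PTU libraries with the T3 comparison, so the values of both are given side by side and no relation between them is drawn.

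Psme4 fell most, by 0.66 in cKO (SE 0.0978, adjusted p = 3.97e-04) and 0.79 in WT (SE 0.0978, adjusted p = 8.11e-05). It is the gene whose PTU call held under every alternative in both genotypes, and its log2 fold change with T3 was 0.87 in cKO and 0.84 in WT. Psmd8, a lid subunit, fell by 0.42 in cKO (adjusted p = 0.00611) and 0.52 in WT (adjusted p = 0.00118). Its WT call ended without the library highest in atrial markers of each group (adjusted p = 0.0525), and its cKO call ended under at least 1 alternative. Psmd14 fell by 0.37 in cKO (adjusted p = 0.0114) and 0.49 in WT (adjusted p = 0.00182), and the cKO call ended without cKO chow library 2 (adjusted p = 0.0572). That cKO call also ended without the library highest in atrial markers of each group and scaled to the same total FPKM (adjusted p up to 0.141). Psma4, Psmc4 and Psmd3 were also called lower in both genotypes, by 0.34 to 0.47 on the log2 scale. Without the library highest in atrial markers of each group, the calls of these genes ended in both genotypes (for Psmd3, adjusted p = 0.106 in cKO and 0.114 in WT). For Psma4 and Psmc4 at least 1 of these calls also ended when a single library was left out. In WT the calls ended for Psma4 without WT PTU library 1 (adjusted p = 0.0703) and for Psmc4 without WT chow library 3 (adjusted p = 0.0573) or WT PTU library 2 (adjusted p = 0.0552). In cKO the Psmc4 call ended without cKO chow library 1 (adjusted p = 0.0658) or cKO PTU library 1 (adjusted p = 0.0753).

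Psmb5 fell by 0.64 in WT (adjusted p = 0.0409) with overlap between the WT PTU and chow libraries, and the call ended without WT chow library 2 (adjusted p = 0.129), WT chow library 3 (adjusted p = 0.116), WT PTU library 1 (adjusted p = 0.135) or WT PTU library 2 (adjusted p = 0.142). In cKO its log2 fold change was -0.40 (adjusted p = 0.195). The 7 genes called lower in cKO and not in WT were Psma1, Psma3, Psmb3, Psmc2, Psmd2, Psmd7 and Psme3, with log2 fold changes of -0.40 to -0.27 in cKO and -0.31 to -0.08 in WT, and no interaction was called. The cKO calls of all 7 ended under at least 1 alternative. Psmd4 rose by 0.29 in WT (adjusted p = 0.0263), where PTU libraries were above chow libraries, and had 0.07 in cKO (adjusted p = 0.631). The Psmd4 call ended without WT chow library 2 (adjusted p = 0.0886), WT chow library 3 (adjusted p = 0.0679), WT PTU library 1 (adjusted p = 0.0636) or WT PTU library 3 (adjusted p = 0.0967). Psmd5 rose by 0.29 in cKO (adjusted p = 0.0457) and had 0.10 in WT, and its call ended without cKO chow library 1 (adjusted p = 0.104), cKO chow library 2 (adjusted p = 0.0721), cKO chow library 3 (adjusted p = 0.125), cKO PTU library 1 (adjusted p = 0.139) or cKO PTU library 2 (adjusted p = 0.125).

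By class, the genes called lower on PTU were 3 of 7 alpha-ring genes in cKO and 1 of 7 in WT, 1 of 7 beta-ring genes in each, 2 of 6 ATPase genes in cKO and 1 of 6 in WT, and 5 of 11 non-ATPase genes in cKO and 3 of 11 in WT. The 20S core summed to 1706 to 1939 FPKM on PTU against 1939 to 2221 FPKM on chow in cKO, and to 1703 to 2014 FPKM against 2021 to 2122 FPKM in WT. In cKO the highest PTU library and the lowest chow library both stood at 1939 FPKM, and in WT they stood at 2014 and 2021 FPKM. Scaled to the same total FPKM, which moved the median of all tested genes to 0.13 in cKO and -0.02 in WT, the calls were 1 higher and 5 lower in cKO, and 0 higher and 11 lower in WT. Under that scaling the proteasome genes had medians of -0.04 in cKO and -0.11 in WT. Without the library highest in atrial markers of each group, 1 call was left in cKO and 2 in WT. That alternative keeps 2 libraries in each group, so the smaller number of libraries and the atrial tissue cannot be told apart. The count in cKO was also 7 without chow library 1 or PTU library 1, 6 without chow library 2 and 8 without PTU library 2, and that in WT was 5 without PTU library 1.

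Cell type markers moved with PTU as well, and their part in the proteasome values was not tested. None of the 14 macrophage markers was called in cKO, where their sum was 202 to 661 FPKM on PTU against 414 to 548 FPKM on chow. In WT 6 of 14 fell (C1qa, C1qb, C1qc, Cd163, Cd68 and Mrc1), and the sum was 202 to 303 FPKM on PTU against 352 to 632 FPKM on chow, without overlap. No atrial marker of 8 was called in either genotype, but their sum was 3314 to 10273 FPKM on PTU against 1234 to 2931 FPKM on chow in cKO, without overlap, and 1687 to 6996 FPKM against 920.2 to 8074 FPKM in WT. Of 12 endothelial markers, 2 fell in each genotype, Eng and Tie1 in cKO and Eng and Vwf in WT, and the sum was 395 to 430.4 FPKM against 463 to 482 FPKM in cKO and 411 to 426 FPKM against 428 to 475 FPKM in WT. Of 10 cardiomyocyte markers, 3 fell in cKO, and 2 fell and 1 rose in WT. Their sum was 41571 to 58712 FPKM on PTU against 51054 to 74639 FPKM on chow in cKO, and 55382 to 72649 FPKM against 48452 to 60459 FPKM in WT. No fibroblast marker of 10 and no lymphocyte marker of 2 was called in either genotype.

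**Figure D3:**
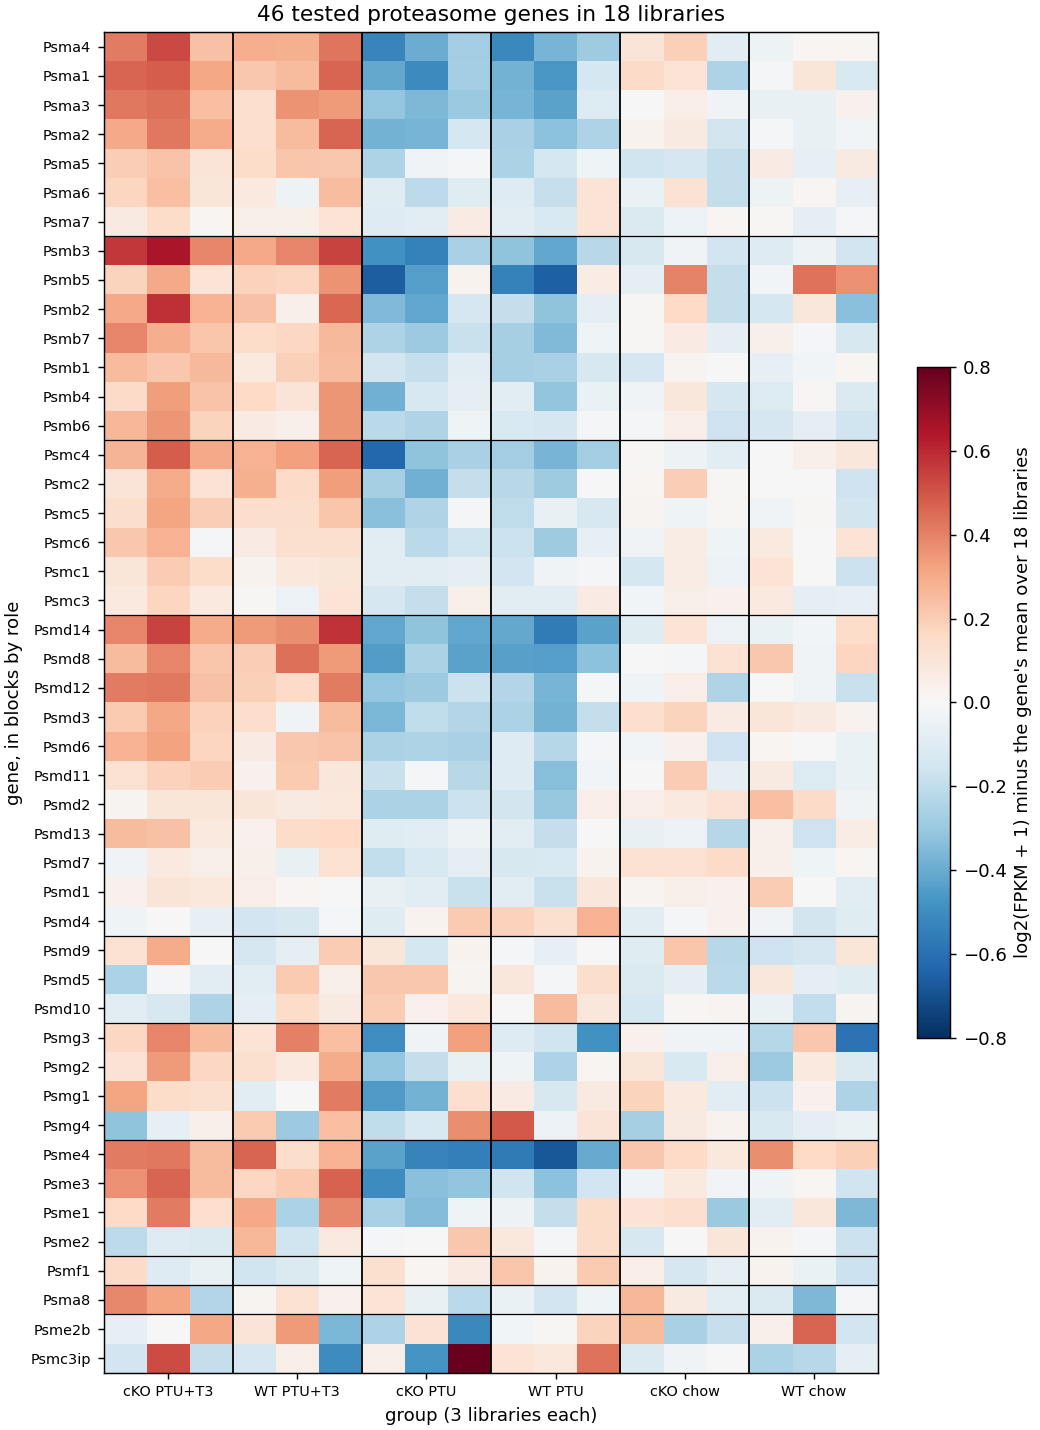
Level of the 46 tested proteasome genes (rows, in blocks by role) in the 18 libraries (columns, 3 per group), as log2(FPKM + 1) minus the gene's mean over all libraries. Most rows of the rings, the ATPases and the non-ATPases are red in the PTU+T3 groups and blue in the PTU groups of both genotypes, with chow between.

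Set against chow, PTU+T3 hearts had more of some subunits. In cKO 15 genes were called higher and in WT 8, with none lower in either, while 11.7% of all tested genes were called higher in cKO and 7.68% in WT (9.15% and 7.0% lower). The median log2 fold change of the 46 genes was 0.21 in cKO and 0.18 in WT. Psmb3 was higher by 0.64 in cKO (SE 0.0969, adjusted p = 3.62e-04) and 0.51 in WT (SE 0.0969, adjusted p = 0.00308), and Psmd14 by 0.42 and 0.41 (adjusted p = 0.00404 and 0.00773). Of the 14 core genes, 9 were called higher in cKO and 4 in WT. Psme4, by contrast, had 0.21 in cKO (adjusted p = 0.143) and 0.05 in WT (adjusted p = 0.768). In WT, the count of 8 was 2 without chow library 1, chow library 3 or PTU+T3 library 3, 4 without PTU+T3 library 2 and 5 without chow library 2. In cKO, the count of 15 was 6 without PTU+T3 library 2 and 7 without chow library 3. It was 4 in WT and 8 in cKO when libraries were scaled to the same total FPKM. That scaling put the median of the proteasome genes at 0.08 in WT and 0.09 in cKO, and that of all tested genes at -0.08 and -0.09.

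Between genotypes, no proteasome gene was called on any treatment, averaged over treatments, or in the interactions of genotype with PTU and with T3, where 0% of all 12587 genes were called. At an unadjusted p under 0.05, Psma5 passed on chow, Psmd10 with PTU+T3 and no proteasome gene in the other 4 of these comparisons, while of all genes 394 passed on chow, 434 with PTU+T3, 491 on PTU, 209 averaged over treatments, 805 in the PTU interaction and 821 in the T3 interaction. The authors' deposited tables also list 0 of these genes at a q under 0.05 for cKO against WT, where the shares of all listed genes higher and lower were 0.156% and 0.835% with PTU+T3, 0.698% and 0.252% on PTU, and 0.332% each on chow. Psma5 had 66.0, 66.9 and 64.4 FPKM in cKO against 77.1, 70.3 and 77.5 FPKM in WT hearts on chow (-0.19, SE 0.0806, adjusted p = 0.999), without overlap.

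The outermost sizes that these data allow are wide, but each outer bound is that of a single gene, and genes with a smaller SE had narrower intervals. Averaged over treatments, log2 fold changes of cKO over WT lay between -0.13 (Psme2b) and 0.13 (Psmg3), with 95% intervals that reached -0.40 and 0.45 at the outermost. For the T3 effect, cKO minus WT, the 46 values lay between -0.25 (Psmd5) and 0.33 (Psme2b), their median was 0.09, and intervals reached -0.76 and 1.12. For the PTU effect they lay between -0.42 (Psmg1) and 0.24 (Psmb5), with intervals to -1.0 and 0.86. A p that misses the threshold does not show that the genotypes responded alike.

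The T3 effects of the genotypes rest on separate libraries and can be set against each other. Of the 31 genes called higher in cKO, 23 (74.2%) were called higher in WT, and these were 95.8% of the 24 WT calls. Of the 2 called lower in each genotype, 0 were shared. Across the 46 genes the log2 fold changes of the genotypes had a Pearson r of 0.90, a description over genes that share libraries and are not independent replicates. For PTU against chow, 6 of the 13 genes lower in cKO (46.2%) were among the 7 lower in WT (85.7%), and r was 0.82.

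Proteasome genes also varied together among libraries of the same group. With group means removed, the mean pairwise correlation over the 18 libraries (12 residual degrees of freedom) was 0.60 among the 14 core genes, 0.38 among the 17 genes of the 19S particle and 0.44 between both sets. It was 0.31 over all 46 genes, 0.37 among the 8 genes of the CCT chaperonin, 0.35 among the 9 genes of the COP9 signalosome, and 0.00 over all tested genes. In 6 of 6 groups, the library highest in core genes also had the highest total FPKM. The part of the library scale in this covariation was not tested.

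Genes that work with the proteasome had calls in both directions with T3, more of them higher. Of 23 partners (assembly factors, shuttle and receptor proteins, deubiquitinases and regulators of proteasome genes), 10 were called higher and 2 lower in cKO, and 7 higher and 3 lower in WT. Of all tested genes, 24.9% were called higher and 21.8% lower in cKO, and 22.3% and 21.8% in WT. The partners' share called higher was above these, and their share called lower was below. Nfe2l1, the transcription factor that drives proteasome genes when proteasome activity drops, averaged 168 ± 2.61 FPKM with PTU+T3 and 144 ± 8.28 FPKM on PTU in cKO, and 161 ± 20.1 FPKM and 134 ± 3.26 FPKM in WT (SD, n = 3 each), and rose by 0.23 (adjusted p = 0.0378) and 0.25 (adjusted p = 0.0249). The Nfe2l1 calls were weak: they ended without cKO PTU library 2 (adjusted p = 0.0513), cKO PTU library 3 (adjusted p = 0.131), cKO PTU+T3 library 1 (adjusted p = 0.0775), cKO PTU+T3 library 2 (adjusted p = 0.097) or cKO PTU+T3 library 3 (adjusted p = 0.0669) in cKO, where the value was -0.04 when libraries were scaled to the same total FPKM, and without WT PTU library 1 (adjusted p = 0.0636), WT PTU library 2 (adjusted p = 0.0676) or WT PTU+T3 library 1 (adjusted p = 0.138) in WT. Its relative Nfe2l2, the regulator of antioxidant genes, rose by 0.48 in cKO and 0.45 in WT. Zfand2a, an arsenite-inducible proteasome-binding protein, rose by 0.51 and 0.57, whereas Ubqln2, a shuttle for ubiquitylated proteins, fell by 0.51 and 0.58.

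Pomp, the maturation factor of the 20S core, stood at 170.3 ± 7.98 FPKM with PTU+T3 and 160.3 ± 13.98 FPKM on PTU in cKO, and at 179 ± 7.16 FPKM and 163 ± 13.4 FPKM in WT (SD, n = 3 each), and was called in neither genotype. Adrm1, a ubiquitin receptor of the 19S particle, rose by 0.31 in cKO (adjusted p = 0.0148; the call ended without cKO PTU library 1 (adjusted p = 0.0517) or cKO PTU+T3 library 2 (adjusted p = 0.0738)) and had 0.11 in WT (adjusted p = 0.403). Usp14, a deubiquitinase of the particle, had 0.18 and -0.06, neither called. Of 29 genes of ubiquitin and its activation, 9 were called higher and 3 lower in cKO, and 7 higher and 4 lower in WT, or 31.0% and 24.1% higher beside 24.9% and 22.3% of all tested genes. The conjugating enzyme Ube2d1 rose by 0.98 in cKO and 0.78 in WT, and the NEDD8-activating subunit Uba3 by 0.78 and 0.65.

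The immunoproteasome subunits replace the catalytic beta subunits after interferon and in immune cells. Psmb8, the counterpart of Psmb5, averaged 14.1 ± 1.33 FPKM with PTU+T3 and 11.4 ± 2.72 FPKM on PTU in cKO, and 21.8 ± 7.57 FPKM and 8.99 ± 1.81 FPKM in WT (SD, n = 3 each). It rose with T3 in WT by 1.16 (adjusted p = 2.46e-04) and had 0.30 in cKO (adjusted p = 0.225). Macrophage markers rose in both genotypes, 7 of 14 in cKO and 10 of 14 in WT, and their part in the Psmb8 values was not tested. Psmb9 and Psmb10 were called in neither genotype. Psmb5 stood above Psmb8 in every group per length.

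Set beside complexes of like size and build, the 14 core genes had 13 called higher in cKO and 11 in WT, and the 17 genes of the 19S particle 13 higher in cKO and 10 higher and 1 lower in WT. The COP9 signalosome, which shares its architecture with the 19S lid, had 2 of 9 higher in cKO and 0 of 9 in WT. The CCT chaperonin, a double ring that folds actin and tubulin, had 4 higher and 1 lower of 8 in both genotypes. Its share called higher was thus also above that of all tested genes, 24.9% in cKO and 22.3% in WT. The difference between these sets was not tested.

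**Figure D4:**
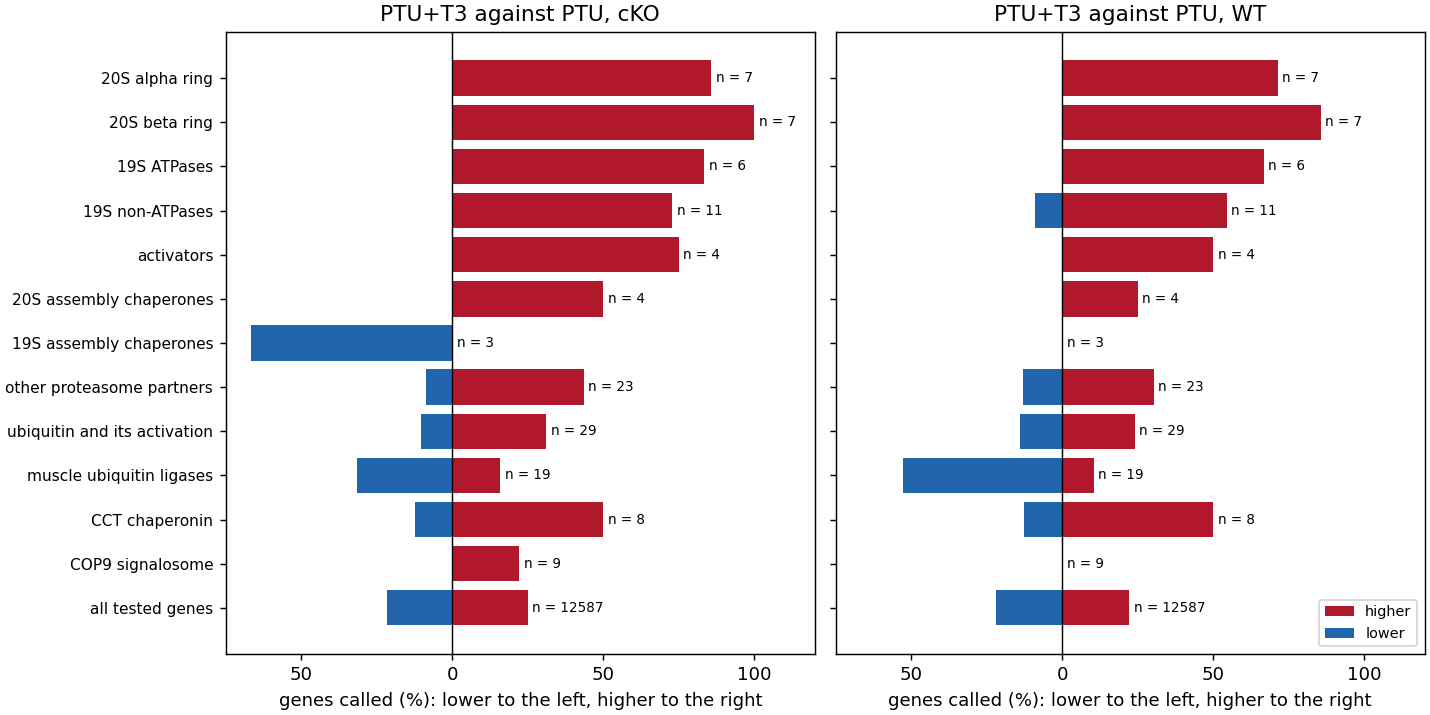
Share of genes called (x axis, percent of the n tested genes of each set, lower to the left in blue, higher to the right in red) for PTU+T3 against PTU in cKO and WT hearts. The rings, the ATPases and the non-ATPases have larger shares called higher than all tested genes (24.9% in cKO and 22.3% in WT), and the COP9 signalosome does not.

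In the authors' deposited tables, which cover WT treatments and not cKO treatments, 18 of 45 listed proteasome genes had a q under 0.05 with higher values with PTU+T3 than on PTU and 0 with lower values, beside 19.1% and 16.5% of all listed genes. For PTU against chow in WT, the authors' deposited table lists 5 lower and 0 higher, namely Psma4, Psmb5, Psmd8, Psmd14 and Psme4 (9.25% lower and 7.58% higher of all listed genes). For PTU+T3 against chow in WT, the authors' deposited table lists Psmb3 and Psmd14 as higher and 0 as lower (6.66% and 5.78% of all listed genes). Genes on the opposite strand overlap exons of Psma4, Psma5, Psmb7, Psmc3, Psmc3ip, Psmd1, Psmd3, Psmd9, Psmd13 and Psme1, and the library kit does not mark strand, so their reads may be mixed.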

How the data were processed

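The 18 heart libraries, 6 groups of 3, were prepared with the unstranded TruSeq RNA kit V2, per the labels' protocols. The authors deposited FPKM per gene and library. Bowtie2, Cufflinks and mm10 are named in the submitters' processing notes, without versions; no source used here gives the annotation. Besides these, the authors deposited pairwise tables holding, per the file headers, p-values and q-values, which were read as theirs.

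Groups came from the genotype and treatment labels, and libraries are numbered in accession order. The test covered genes reaching 1 FPKM in 3 or more libraries; 2 genes with a failed estimate were left out. A model of 6 group means was fitted to log2(FPKM + 1) of the whole table by limma (version 3.58.1, R 4.3.3) using robust estimation and a trended prior, leaving 12 residual degrees of freedom. Benjamini-Hochberg adjustment ran over the 12587 genes within each of 12 comparisons, and the threshold was 0.05 with no minimum fold change. A fold change on this scale understates that of genes with low values. The model was tested on simulated data. Alternatives were another pseudocount (0.1 FPKM), no filter, 3 scalings, library weights, no trend, only the groups compared, each library left out, and no library highest in atrial markers.

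The members and lists were chosen with earlier results of these data known. Values per library are given for a panel with representatives of each role and for the members with the highest and lowest T3 change in WT of each role class; other genes come from the lists, up to 4 per list by smallest p for T3 in WT, with Nfe2l1, Pomp, Adrm1, Usp14 and Med13. The steps between low values gave relative depth; absolute depth is unknown, so no counting interval is given. Gene positions are from GENCODE vM21 on GRCm38, the mm10 assembly, in which all 47 genes were found.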

Additional observations from a re-analysis of the deposited data

How the results depend on the processing

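No paired analysis was possible because the labels give no shared replicate numbers: each title carries its own number and libraries were numbered in accession order.

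Counts of proteasome genes called moved by more than 1.5 times under these alternatives. For PTU against chow in cKO (14), the count was 1 without the library highest in atrial markers of each group, 6 with only the groups compared, 6 scaled to the same total FPKM (chosen after seeing the data), and 6 to 17 with a library left out. In WT (8) it was 17 with library weights, 2 without the atrial-high libraries, 5 by the authors' deposited q, and 5 to 10 with a library left out. For PTU+T3 against chow in cKO (15) it was 2 without the atrial-high libraries, 8 scaled to the same total, and 6 to 16 with a library left out. In WT (8) it was 2 without the atrial-high libraries, 1 with only the groups compared, 2 by the authors' deposited q, 4 scaled to the same total, and 2 to 6 with a library left out. For PTU+T3 against PTU in cKO (33) it was 25 to 34 with a library left out, and no alternative moved this count of both directions past that limit. The directions taken apart moved more: scaled to the same total FPKM, 17 genes were called higher and 5 lower in cKO, against 31 and 2. In WT (26) the count was 20 to 26 with a library left out and 17 without the atrial-high libraries. The causes were not tested. Leaving out the atrial-high libraries keeps 2 libraries in each group, so the smaller number of libraries and the atrial tissue cannot be told apart. Genotype and interaction counts were 0 under every alternative run.

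Of the 81 calls of single proteasome genes for PTU and for T3, 46 ended under at least 1 alternative. Called values changed sign for PTU+T3 against PTU in cKO scaled to the same total FPKM: Psmc1 had -0.0347, Psmd13 had -0.00307 and Nfe2l1 had -0.0429. FPKM without read totals limits what can be said of genes near 1 FPKM, such as Psma8 and Psme2b.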

Other observations

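Ubiquitin ligases that act in muscle were mixed in their T3 response. Of 19 tested, 6 were called lower and 3 higher in cKO hearts, and 10 lower and 2 higher in WT hearts, where 21.8% of all tested genes were called lower in each genotype and 24.9% in cKO and 22.3% in WT higher. Trim63 and Fbxo32, the ligases best known from muscle atrophy, were not called in cKO (log2 fold changes of -0.21 and -0.53, adjusted p = 0.306 and 0.0571) and fell in WT by 0.66 and 0.57 (adjusted p = 0.00348 and 0.0443). Nedd4, a ligase of membrane proteins, averaged 105 ± 1.95 FPKM with PTU+T3 and 163 ± 8.14 FPKM on PTU in cKO, and 105 ± 5.35 FPKM and 172 ± 7.77 FPKM in WT (SD, n = 3 each). It fell by 0.63 in cKO (adjusted p = 2.66e-06) and 0.71 in WT (adjusted p = 1.10e-06). Nedd4l fell by 0.64 and 0.46, and Cblb, a ligase that restrains growth factor signalling, by 0.47 and 0.54. Mdm2, the ligase of p53, rose by 0.93 in cKO (adjusted p = 4.91e-06) and 0.89 in WT (adjusted p = 9.29e-06). In the same hearts the proteasome genes Psmd14 and Psme4 rose in both genotypes.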
